A study of Sus scrofa with 12 samples.

Results

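The insulin-like growth factor (IGF) system was followed through 7 genes in pig hypothalamus: the ligands IGF2 and IGF1, the receptors IGF1R and IGF2R, and the binding proteins IGFBP2, IGFBP3 and IGFBP5. Its members were all array probe sets whose platform gene symbol was one of these 7. All 7 genes were measured, by 41 of the 47722 probe sets that were not controls. IGF2 had 14 probe sets, IGFBP5 had 8, IGF1 had 7, IGF1R had 6, and IGF2R, IGFBP2 and IGFBP3 had 2 each. A probe set is a group of short probes read as 1 value, and here every value is a signal on the log2 scale, on which a difference of 1 is a doubling. After the dimmest 25% of probe sets had been left out, 38 of the 41 were tested. The 3 that were not were an IGF1 probe set with a mean signal of 1.64, an IGF1R probe set with a mean of 1.60 and an IGFBP5 probe set with a mean of 1.84.

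IGF1 and IGF2 are small secreted hormones related to insulin. Both signal through IGF1R, a receptor tyrosine kinase that recruits the insulin receptor substrates and switches on the PI3K and AKT kinases. IGF2R, which is also the cation-independent mannose 6-phosphate receptor, takes up IGF2 and delivers it for breakdown. The binding proteins hold the ligands in the fluid around cells and limit or prolong their access to the receptor, and proteases such as pappalysin release the ligands again. In the rodent brain, IGF2 is made mainly by the meninges, the choroid plexus and blood vessels, whereas IGF1 and IGF1R are found in neurons among other cells.

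The study profiled 6 pigs of low and 6 pigs of high feed efficiency, each pig on its own whole-transcript Snowball array, to ask which hypothalamic transcripts go with the trait. Each group held 3 females and 3 males, and all 12 pigs were 140 days old. The labels name no genotype, breed, litter, castration, sampling hour or array batch. Identifiers of the pigs form 2 runs, a lower one of 6 males and 2 females and a higher one of 4 females, so sex and identifier run could be told apart in part only. The array medians lay between 4.35 and 4.42, and the correlations between arrays lay between 0.974 and 0.982. All 11 listed hypothalamic neuropeptide genes were measured, at means of 4.37 to 11.8. The 4 tested genes of the anterior pituitary lay between 3.48 and 5.47. The 69 background probe sets had means of 1.30 to 7.49, and 4 member probe sets lay above that range, of which 2 were of IGF2 and 2 of IGFBP5. A signal inside the range can lie at background, where a change in RNA moves it little. The tissue was a mixture of cells, so fewer cells of a type and less RNA per cell cannot be told apart.

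None of the 7 genes differed between pigs of low and high feed efficiency past the threshold of an adjusted p of 0.05. Of the 38 member probe sets, 0 passed limma's test, and their lowest adjusted p was 0.799. Over all 35791 probe sets tested, 0 passed (0%), with a smallest adjusted p of 0.714. Without low feed efficiency replicate 2, 1 passed. An unadjusted p under 0.05 was found for 2 member probe sets, 5.26% of them, against 6.15% of all probe sets (2201). With low feed efficiency replicate 2 left out that count was 0. With high feed efficiency replicate 4 or 5 left out it was 3. It was 1 after low feed efficiency replicate 1, 3, 5 or 6, or high feed efficiency replicate 2 or 3, had been left out. Shares of the whole array with a pig left out are not given here. With no pig left out, the members' share lay near that of the whole array. No member probe set separated all 6 low from all 6 high pigs, which 0.282% of all probe sets did. The differences, low minus high, were positive for 22 and negative for 16 member probe sets. Their median was 0.06, beside a median of -0.0023 over all 35791 probe sets, of which 49.4% were positive. For 29 of the 38, the 95% interval of the difference lay inside a 1.5-fold change of array signal either way.

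**Figure D1:**
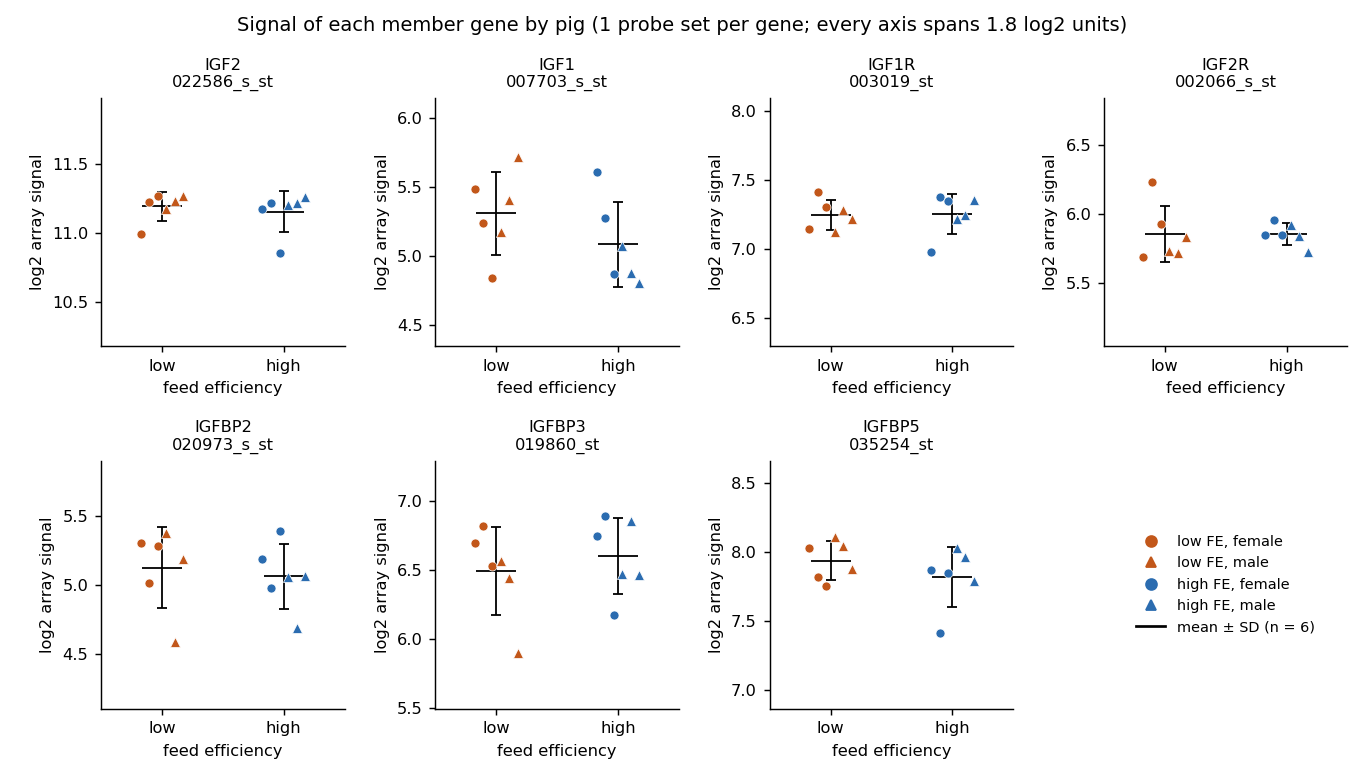
Log2 array signal of every pig for the probe set of each gene with the highest mean signal, with low feed efficiency pigs on the left and high feed efficiency pigs on the right of each panel, circles for females, triangles for males and bars for the mean ± SD (n = 6). The groups overlap in all 7 panels, and 1 pig of each group stands below the others for IGF2.

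IGF2, the ligand with the most probe sets, had nearly the same signal in both groups on its brightest probe set, SNOWBALL_022586_s_st. The signal ran from 10.996 through a median of 11.23 to 11.27 in the low pigs, against 10.86, 11.21 and 11.26 in the high pigs. Apart from 1 female in each group, all pigs lay within a band of 11.17 to 11.27. The means were 11.20 ± 0.10 in low and 11.16 ± 0.15 in high pigs (SD, n = 6 each), a difference of 0.04 ± 0.08 (SE). Its 95% interval of -0.14 to 0.22 excluded a 1.5-fold change of signal. This probe set lay near the top of the array's range, and whether its signal was saturated was not tested. Without the pigs of the higher identifier run, its difference was -0.046.

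The other 13 IGF2 probe sets had means between 4.29 and 7.82 and differences between low and high pigs that pointed both ways. In all, 9 of the 14 differences were positive and 5 negative, with a median of 0.06 and a range of -0.24 to 0.49. The probe set with the highest positive difference was SNOWBALL_025533_s_st, at 7.52 ± 0.40 in low and 7.03 ± 0.81 in high pigs (SD, n = 6 each). That difference of 0.49 ± 0.26 (SE) had an adjusted p of 0.813 in limma's test. The most negative was SNOWBALL_022582_st, with a signal from 4.71 through a median of 5.02 to 5.17 in the low pigs and 4.97, 5.23 and 5.42 in the high pigs. In this case the 6 low pigs all lay under the median of the high pigs, but the groups overlapped through the lowest high pig, a female. The difference was -0.24 ± 0.10 (SE) with an adjusted p of 0.799, and over the other settings it lay between -0.33 in the lower and -0.058 in the higher identifier run. In all, 1 of the 14 IGF2 probe sets (7.14%) reached an unadjusted p under 0.05, near the 6.15% of all probe sets.

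The probe sets that carry the IGF2 symbol followed each other loosely over the 12 pigs. Of the 14, 2 had a mean above the background range. The part of signals at background in this loose relation was not tested. Among the 91 pairs, Pearson's r had a median of 0.23 and ran from -0.41 to 0.89. It was negative in 23 pairs and over 0.5 in 18. The closest pair was SNOWBALL_026846_s_st and SNOWBALL_026504_s_st, at 0.89, and the most opposed was SNOWBALL_025533_s_st and SNOWBALL_022235_st. After the means of feed efficiency and sex had been taken off, the median was 0.16 and 18 pairs lay over 0.5, of which 11 were among the 18 before. Among SNOWBALL_026846_s_st, SNOWBALL_026504_s_st and SNOWBALL_025533_s_st, r of 0.89, 0.75 and 0.71 then became 0.73, 0.50 and 0.36. These values describe pairs that share arrays and pigs, so no p is given for them. SNOWBALL_025926_s_st had the highest mean r with the other 13, at 0.44, and the widest spread over pigs, an SD of 0.84. The lowest mean r were those of SNOWBALL_022585_s_st and SNOWBALL_022235_st, at -0.053 and -0.039. With the means of feed efficiency and sex taken off, they were 0.34 for SNOWBALL_022585_s_st and 0.036 for SNOWBALL_022235_st, and SNOWBALL_022585_s_st then had an r of 0.89 with SNOWBALL_022582_st, 0.74 with SNOWBALL_037996_st and 0.66 with SNOWBALL_025926_s_st. The brightest probe set had an SD of 0.12 over the 12 pigs.

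**Figure D2:**
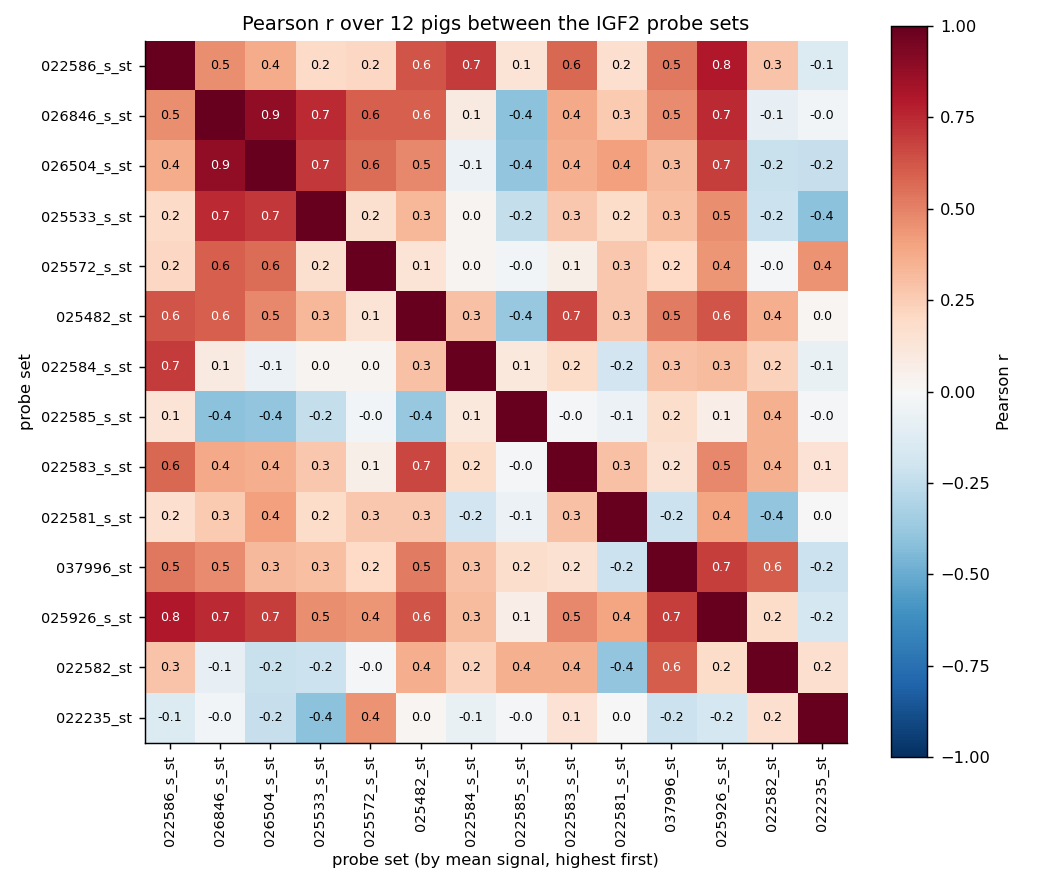
Pearson's r over 12 pigs for each pair of the 14 IGF2 probe sets, ordered by mean signal from the top and from the left, with red for positive and blue for negative values. SNOWBALL_026846_s_st, SNOWBALL_026504_s_st and SNOWBALL_025533_s_st form a red block, and SNOWBALL_022585_s_st is mostly pale or blue.

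Agreement with the brightest probe set of the same gene was tested for 31 further probe sets, with p-values from 100000 permutations adjusted over the 31. By Pearson's r, 2 passed, and 6 had an unadjusted p under 0.05. One was the IGF2 probe set SNOWBALL_025926_s_st, with r = 0.80 (permutation, adjusted p = 0.0425) and Spearman's rho of 0.59 (permutation, adjusted p = 0.256). Its r was 0.35 without the 2 pigs farthest from the median of the brightest probe set, so it rested on those 2 pigs as a pair. Within the lower identifier run of 8 pigs, which holds 1 of the 2, r was 0.68, and over the 12 pigs it was 0.74 after the means of feed efficiency and sex had been taken off. The other was SNOWBALL_046349_st of IGF1R, with r = 0.77 (permutation, adjusted p = 0.0487) and rho of 0.82 (permutation, adjusted p = 0.0589). That r was still 0.77 without the 2 pigs and 0.80 within the lower run. By rho, 0 of the 31 passed. With 1 pig left out, 2 passed by r without high feed efficiency replicate 1 or 5 or low feed efficiency replicate 5, 1 without high feed efficiency replicate 3, and 0 without any of the other 8 pigs. Pairs of IGF1R probe sets had a median r of 0.55 and were positive in 10 of 10, whereas the medians were 0.10 over the 15 IGF1 pairs and 0.19 over the 21 IGFBP5 pairs. The single pairs gave r of 0.56 for IGFBP3, 0.34 for IGFBP2 and -0.063 for IGF2R.

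IGF1, the growth hormone-dependent ligand, was dim in this tissue, with means of 2.53 to 5.20 over its 6 tested probe sets, all inside the background range. The brightest, SNOWBALL_007703_s_st, ran from 4.84 through 5.32 to 5.72 in low pigs, against 4.81, 4.98 and 5.61 in high pigs. The ranges of the groups nearly coincided. The means were 5.31 ± 0.30 in low and 5.09 ± 0.31 in high pigs (SD, n = 6 each), a difference of 0.22 ± 0.17 (SE, adjusted p = 0.844). In the 8 pigs of the lower identifier run the difference was 0.35 and in the 4 of the higher run -0.038. With 1 pig left out it was lowest without low feed efficiency replicate 3, at 0.13, and highest without high feed efficiency replicate 4, at 0.33. The widest IGF1 difference was that of SNOWBALL_023016_s_st, 0.60 ± 0.37 (SE, adjusted p = 0.819). There the low pigs spanned 3.63 to 4.94 and the high pigs 2.81 to 5.28. Of the 6 IGF1 differences, 5 were positive and 1 was negative, with a median of 0.11, and for 2 the 95% interval reached beyond 1.5-fold.

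IGF1R, the receptor for both ligands, had nearly the same signal in both groups. On SNOWBALL_003019_st its signal ran from 7.13 through 7.25 to 7.41 in low pigs and from 6.98 through 7.30 to 7.38 in high pigs. The groups lay on top of each other, with a difference of -0.0057 ± 0.087 (SE). All 5 tested IGF1R probe sets had intervals inside a 1.5-fold change of signal, and their differences ran from -0.0063 to 0.14. Their means all lay inside the background range, where signal bounds a difference in RNA poorly. The widest was SNOWBALL_003116_s_st, at 7.18 ± 0.08 in low and 7.04 ± 0.18 in high pigs (SD, n = 6 each), with a difference of 0.14 ± 0.09 (SE, adjusted p = 0.826).

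IGF2R, the clearance receptor of IGF2, also had the same mean in both groups. SNOWBALL_002066_s_st ran from 5.69 through 5.78 to 6.23 in low pigs, against 5.72, 5.85 and 5.96 in high pigs. The low pigs spread more widely through 1 female at the top. The difference was -0.0015 ± 0.092 (SE), and that of the second IGF2R probe set was -0.022 ± 0.14 (SE). Both intervals excluded a 1.5-fold change of signal, but both means lay inside the background range. For the brightest probe sets of IGF1R and IGF2R, the sign of the difference turned to positive, at 0.016 and 0.020, once the arrays were set to equal medians.

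Of the binding proteins, IGFBP3, the main carrier of IGF1 in blood, had negative differences on both probe sets. Both had means inside the background range. SNOWBALL_029030_st ran from 5.73 through 5.90 to 6.33 in low pigs and from 5.95 through 6.14 to 6.49 in high pigs. The high pigs' median lay above 5 of the low pigs and below the last, a female. The means were 5.94 ± 0.22 in low and 6.22 ± 0.23 in high pigs (SD, n = 6 each), a difference of -0.27 ± 0.12 (SE, adjusted p = 0.806) that ranged from -0.19 to -0.41 over the other settings tried. The brighter SNOWBALL_019860_st stood at 6.49 ± 0.32 in low and 6.60 ± 0.28 in high pigs (SD, n = 6 each), with a difference of -0.11 ± 0.16 (SE). In the 4 females of the higher identifier run its difference was 0.14, and with 1 pig left out it ran from -0.23 without high feed efficiency replicate 6 to -4.9e-05 without low feed efficiency replicate 3.

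IGFBP2, a binding protein secreted by glia and choroid plexus in other mammals, stood at 5.12 ± 0.29 in low and 5.06 ± 0.23 in high pigs (SD, n = 6 each) on SNOWBALL_020973_s_st. The low pigs ran from 4.59 through 5.23 to 5.38 and the high pigs from 4.69 through 5.06 to 5.39. In each group 1 male was the lowest pig, and the difference was 0.06 ± 0.14 (SE). The dim second probe set, SNOWBALL_022442_st, ranged from 1.23 to 4.09 in low and from 1.42 to 3.14 in high pigs. Its interval of -0.88 to 1.35 gave no useful bound on a change. Both IGFBP2 probe sets had means inside the background range.

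IGFBP5, which binds both ligands and also attaches to extracellular matrix, had probe sets that disagreed in direction. The brightest, SNOWBALL_035254_st, ran from 7.76 through 7.95 to 8.11 in low pigs and from 7.42 through 7.86 to 8.03 in high pigs. The difference was 0.12 ± 0.10 (SE, adjusted p = 0.853), and it was 0.049 to 0.15 with 1 pig left out. Over 24 other settings the IGFBP5 difference stayed positive, at 0.033 to 0.15. The lowest of these was not of this probe set alone but of the mean of the IGFBP5 probe sets. The next, SNOWBALL_033668_st, stood at 7.46 ± 0.13 in low and 7.61 ± 0.22 in high pigs (SD, n = 6 each), with a difference of -0.15 ± 0.09 (SE, adjusted p = 0.819). Both lay above the background range. Of the 7 tested IGFBP5 probe sets, 4 differences were positive and 3 negative, and 5 intervals excluded 1.5-fold. The exceptions were SNOWBALL_037535_s_st and SNOWBALL_039903_st.

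**Figure D3:**
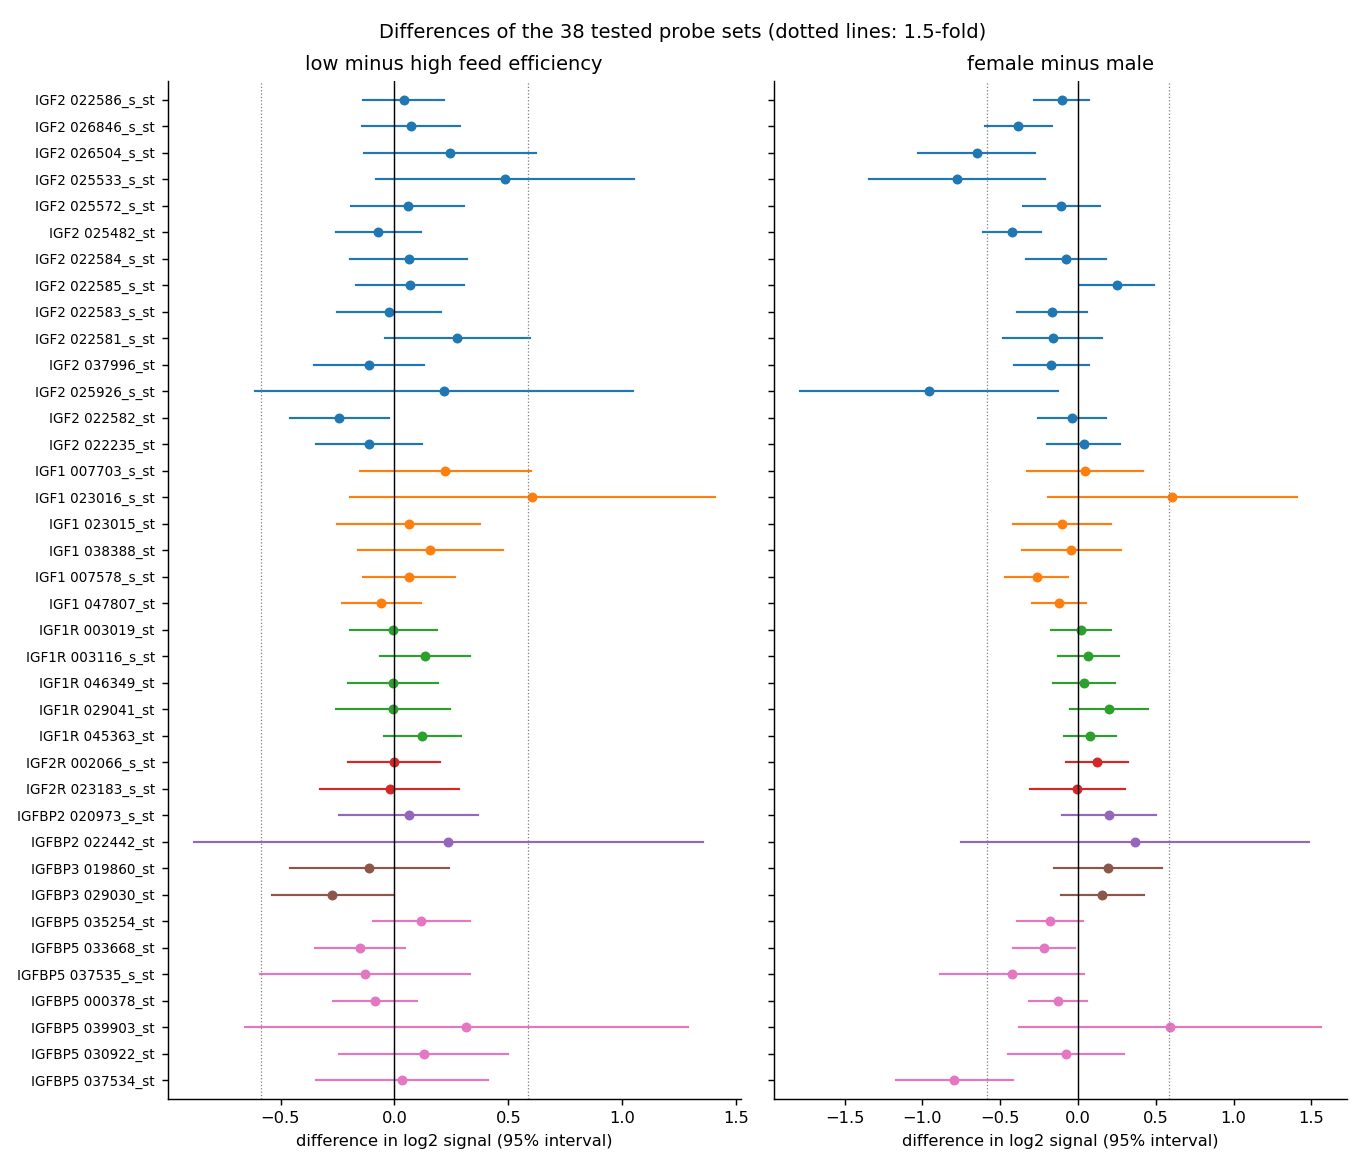
Difference in log2 signal with its 95% interval for the 38 tested member probe sets, low minus high feed efficiency on the left and female minus male on the right, with dotted lines at a 1.5-fold change and 1 colour per gene. On the left, the 22 positive and 16 negative differences scatter around 0. On the right, 12 of the 14 IGF2 differences lie below 0.

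Between the sexes, 0 member probe sets passed the adjusted threshold, and their lowest adjusted p was 0.507, for a probe set of IGF2. Of the members, 9 had an unadjusted p under 0.05, 23.7% of the 38, against 4.74% of all probe sets (1698). Of these 9, 6 belonged to IGF2, which is 42.9% of its 14, 2 to IGFBP5 and 1 to IGF1. The IGF2 probe sets share a gene and partly follow each other, so they are not independent. With only the brightest probe set of each gene, the lowest unadjusted p of the 7 genes was 0.091 in limma's test, for IGFBP5. By the same rule, 3.95% of 12609 genes had an unadjusted p under 0.05. Over the whole array 8 probe sets passed the adjusted threshold, 0.0224% of those tested. In all, 12 of the 14 IGF2 differences, female minus male, were negative and 2 were positive, with a median of -0.16. Over all probe sets, 52% of these differences were positive.

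The IGF2 probe set with the lowest p was SNOWBALL_025482_st. It ran from 6.14 to 6.55 in females and from 6.68 to 6.90 in males, so that the sexes did not overlap. The means were 6.40 ± 0.16 in females and 6.83 ± 0.09 in males (SD, n = 6 each), with a difference of -0.43 ± 0.09 (SE, adjusted p = 0.507). SNOWBALL_026846_s_st, above the background range, stood at 7.63 ± 0.16 in females and 8.01 ± 0.15 in males (SD, n = 6 each), a difference of -0.38 ± 0.10 (SE). Its ranges, 7.43 to 7.80 in females and 7.80 to 8.24 in males, met at their ends. The differences were -0.65 ± 0.17 for SNOWBALL_026504_s_st, -0.78 ± 0.26 for SNOWBALL_025533_s_st and -0.96 ± 0.38 for SNOWBALL_025926_s_st (SE each). SNOWBALL_022585_s_st went the other way, at 0.25 ± 0.11 (SE). The brightest probe set, SNOWBALL_022586_s_st, had a smaller difference of -0.10 ± 0.08 (SE), and all 6 males lay inside the females' range of 10.86 to 11.27.

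Among the other genes, IGFBP5 had 1 probe set whose sexes did not overlap, SNOWBALL_037534_st. It ran from 3.52 to 3.80 in females and from 3.81 to 4.84 in males, a difference of -0.79 ± 0.17 (SE, adjusted p = 0.675). The 2 lowest males, 1 of each feed efficiency group, stood near the females. SNOWBALL_033668_st of IGFBP5 differed by -0.22 ± 0.09 (SE) and SNOWBALL_007578_s_st of IGF1, a dim probe set, by -0.27 ± 0.09 (SE). In all, 2 of the 38 member probe sets (5.26%) did not overlap between the sexes, against 0.268% of all probe sets.

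All 4 females of the higher identifier run differ from the males in both sex and run. Within the lower run, with 2 females and 6 males, the IGF2 differences were -0.48 for SNOWBALL_025482_st, -0.39 for SNOWBALL_026846_s_st, -0.61 for SNOWBALL_026504_s_st, -0.41 for SNOWBALL_025533_s_st, -1.45 for SNOWBALL_025926_s_st and 0.26 for SNOWBALL_022585_s_st. All 6 kept their direction there, at adjusted p-values of 0.999. They were picked by their p over all 12 pigs, and the lower run holds all 6 males. Their direction there is therefore no separate test, and the part of the run was not tested. In the lower run 4 IGF2 probe sets and 6 member probe sets had an unadjusted p under 0.05. The share of all probe sets in that run is not given here, so these counts are not read against the array. The 9 meningeal fibroblast markers, genes of cells that make IGF2 in rodents, had a mean signal of 6.18 to 6.60 in females and 6.21 to 6.82 in males, with 2 differences positive, 7 negative and a median of -0.14. The 12 endothelial markers had means of 6.101 to 6.203 in females and 6.12 to 6.33 in males, with 7 of 12 differences negative. The 11 choroid plexus markers had means of 4.32 to 4.80 in females and 4.38 to 4.67 in males, with 4 differences positive, 7 negative and a median of -0.017. Over the 12609 genes, 52.9% of the differences between the sexes were positive, with a median of 0.0074. The part of these markers in the IGF2 differences was not tested.

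**Figure D4:**
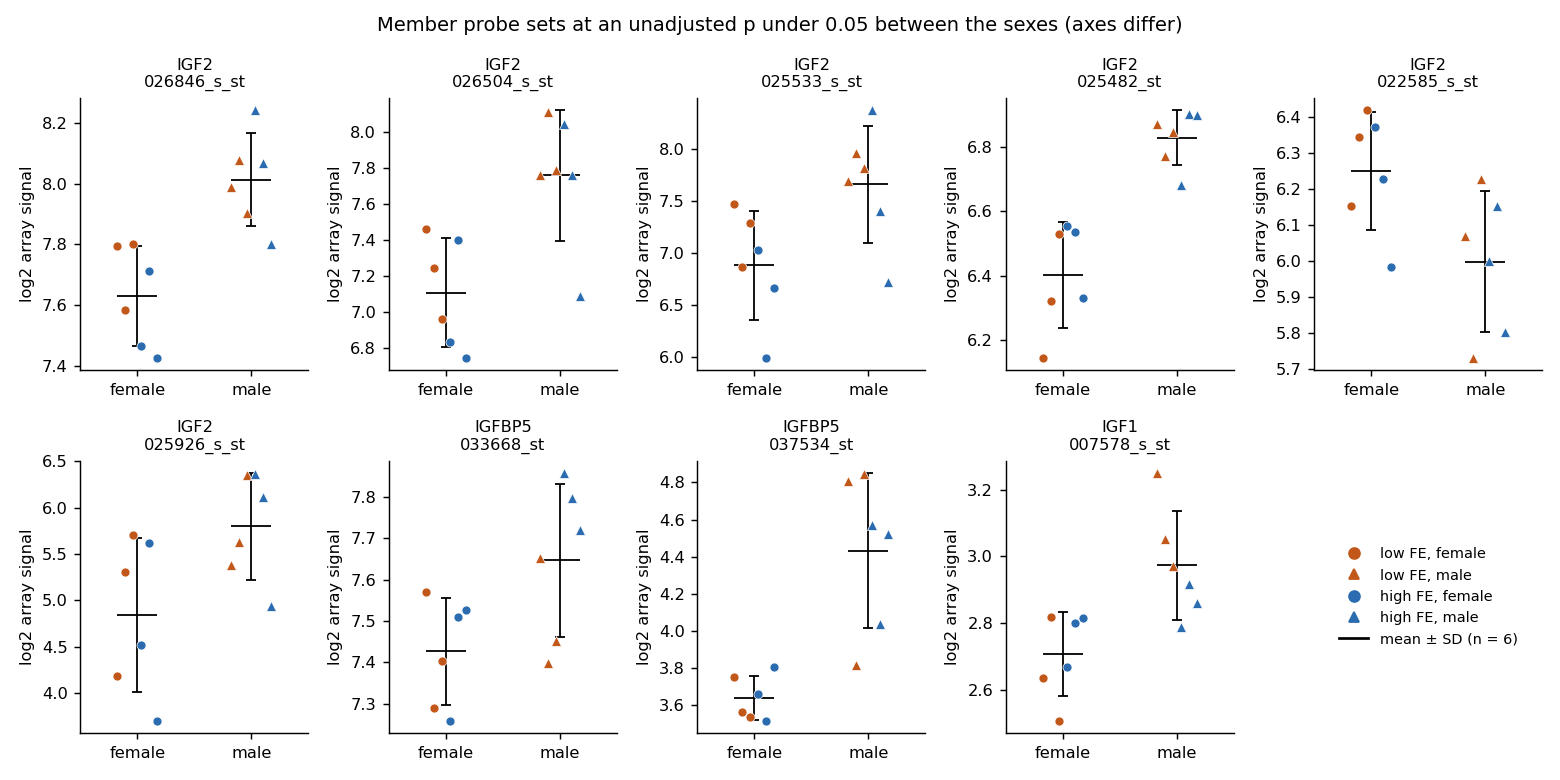
Log2 array signal of every pig for the 9 member probe sets at an unadjusted p under 0.05 between the sexes, females on the left and males on the right, orange for low and blue for high feed efficiency, bars for the mean ± SD (n = 6). Females and males do not overlap for SNOWBALL_025482_st (IGF2) and SNOWBALL_037534_st (IGFBP5), and SNOWBALL_022585_s_st (IGF2) is the 1 of the 9 with the higher mean in females. Axes differ between panels.

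Whether the feed efficiency difference depended on sex was tested as an interaction, the difference in females minus that in males. No member probe set passed limma's test, with a lowest adjusted p of 0.783, and over the array 0 passed (0%), with a smallest adjusted p of 0.152. An unadjusted p under 0.05 was found for 1 of 38 (2.63%), against 6.07% of all probe sets (2174). It was SNOWBALL_023016_s_st of IGF1, with an interaction of -1.55 ± 0.60 (SE). Its low females had 4.72, 3.94 and 3.93, against 3.67, 5.28 and 4.15 in high females, a difference of -0.17 ± 0.42 (SE). Its low males had 4.52, 4.94 and 3.63, against 2.81, 2.90 and 3.25 in high males, a difference of 1.38 ± 0.42 (SE, adjusted p = 0.446). The females of both groups overlapped fully, and the males not at all. On the brightest IGF1 probe set, SNOWBALL_007703_s_st, the differences were -0.065 ± 0.22 in females and 0.51 ± 0.22 in males (SE each), with an interaction of -0.58 ± 0.31 (SE, adjusted p = 0.844).

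Groups of 3 separate easily, so the counts within a sex are read against the array. In females 2 of the 38 member probe sets (5.26%) did not overlap between low and high pigs, against 8.64% of all probe sets. They were SNOWBALL_039903_st of IGFBP5 and SNOWBALL_045363_st of IGF1R. In males there were 6 (15.8%), against 14.3% of all probe sets. Of the 6, 3 were of IGF1 (SNOWBALL_007578_s_st, SNOWBALL_007703_s_st and SNOWBALL_023016_s_st), with low males above high males in each. The other 3 were of IGF1R, IGF2 and IGFBP5. Both shares lay near or below those of the array.

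**Figure D5:**
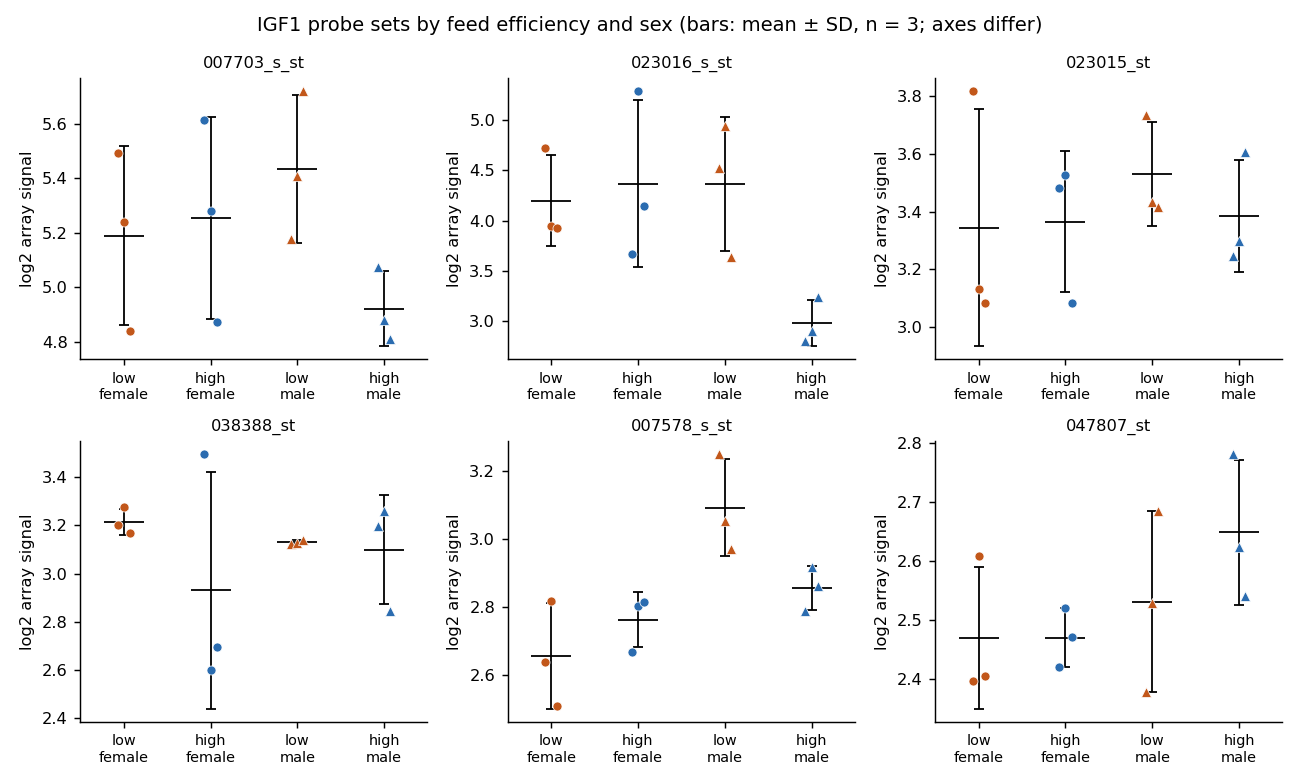
Log2 array signal of the 6 tested IGF1 probe sets by pig, with low and high feed efficiency females on the left and low and high feed efficiency males on the right of each panel, bars for the mean ± SD (n = 3). Low males lie above high males for SNOWBALL_007703_s_st, SNOWBALL_023016_s_st and SNOWBALL_007578_s_st, and females of both groups overlap in every panel. Axes differ between panels.

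The rest of the pathway was described through 61 listed genes, of which 54 were tested, each by its brightest probe set. Of these, 33 differences, low minus high, were positive and 21 negative, beside 6238 positive among the 12609 genes measured (49.5%). The median was 0.03, beside -0.0017 over the 12609 genes, and 0 of the 54 passed limma's test (lowest adjusted p = 0.796). Of the 54, 2 had an unadjusted p under 0.05 (3.7%), against 693 of the 12609 genes (5.5%). A mean above the background range was found for 17 of the 54. Of the 11 other binding proteins and their cofactors, 3 differences were positive and 8 negative, with a median of -0.020. Those of smallest p were PAPPA2, a protease that frees IGF from its binding proteins, at -0.29 ± 0.14, IGFALS, the acid-labile subunit of the blood IGF complex, at -0.21 ± 0.14, and STC1, a stanniocalcin, of the family that inhibits such proteases, at 0.08 ± 0.08 (SE each).

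Of the 7 related ligands and receptors tested, 4 differences were positive and 3 negative. LRP1, an endocytic receptor that also binds IGFBP3, stood at 10.48 ± 0.07 in low and 10.67 ± 0.12 in high pigs (SD, n = 6 each), a difference of -0.19 ± 0.07 (SE, adjusted p = 0.796). Its low pigs ran from 10.38 to 10.58 and its high pigs from 10.56 to 10.85, an overlap through the edge of each group. INSRR, the orphan insulin receptor-related receptor, differed by -0.089 ± 0.095 and the insulin gene INS by 0.12 ± 0.15 (SE each). IGFLR1 was not analysed here.

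Of the 22 receptor adaptors and genes of the PI3K, AKT and FOXO arm, 18 differences were positive and 4 negative, with a median of 0.04. Over the 12609 genes 49.5% were positive. Of the 22, 0 had an unadjusted p under 0.05, and the list was not tested as a whole. The substrates IRS4 and IRS2, which couple the receptor to PI3K, differed by 0.15 ± 0.08 and 0.21 ± 0.14, and PIK3CA, a catalytic subunit of PI3K, by 0.28 ± 0.19 (SE each). The mean signal of the 22 genes lay between 7.47 and 7.54 in low pigs and between 7.37 and 7.48 in high pigs, so the groups met at the edge. Of the 8 genes of growth hormone signalling to IGF1, 6 differences were positive and 2 negative. GH1, the growth hormone gene and also a pituitary marker, differed by 0.56 ± 0.38, the feedback inhibitor CISH by 0.13 ± 0.12 and the kinase JAK2 by 0.10 ± 0.11 (SE each). GH1 ranged from 4.21 to 6.76 in low and from 4.01 to 5.62 in high pigs.

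Among the 6 tested genes that bear on IGF2 expression or its RNA, 2 differences were positive and 4 negative. A mean above the background range was found for 0 of the 6. PLAGL1, an imprinted zinc finger factor of an imprinted gene network that includes IGF2 in mice, stood at 6.03 ± 0.22 in low and 5.72 ± 0.31 in high pigs (SD, n = 6 each), a difference of 0.31 ± 0.13 (SE, adjusted p = 0.799). IGF2BP3, which binds IGF2 mRNA, differed by 0.28 ± 0.14 and the chromatin protein HMGA2 by -0.18 ± 0.12 (SE each). ZBED6, CTCF and H19 were not analysed here.

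Markers of the cells that could carry these transcripts did not pass the test either. Of 11 lists, 0 genes passed limma's adjusted threshold. The counts of direction below stand beside 49.5% positive differences over the 12609 genes, and no list was tested as a whole. Means above the background range were found for 3 of 9 meningeal, 0 of 11 choroid plexus and 2 of 12 endothelial markers. The counts were 1 of 8 for mural, 5 of 8 for neuron and 2 of 7 for tanycyte and ependymal markers. Of 9 meningeal fibroblast markers, 7 differences, low minus high, were positive and 2 negative, with a median of 0.17. LUM differed by 0.29 ± 0.11 and SLC13A4 by -0.36 ± 0.15 (SE each), and the marker mean ran from 6.38 to 6.60 in low and from 6.18 to 6.82 in high pigs. Of 11 choroid plexus markers, 5 were positive and 6 negative, with STEAP1 at -0.49 ± 0.18 and KCNJ13 at 0.41 ± 0.16 (SE each). Of 12 endothelial markers, 8 were positive and 4 negative, with EMCN at 0.34 ± 0.14 and PECAM1 at -0.63 ± 0.30 (SE each). Of 8 mural cell markers, 3 were positive and 5 negative, with MYL9 at -0.31 ± 0.19 and RGS5 at 0.16 ± 0.10 (SE each). Of 8 neuron markers, 7 were positive and 1 negative, with ELAVL4 at 0.33 ± 0.12 and SLC17A6 at 0.23 ± 0.13 (SE each). Of 7 tanycyte and ependymal markers, 4 were positive and 3 negative, with NES at 0.27 ± 0.10 and FOXJ1 at -0.24 ± 0.10 (SE each).

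The remaining lists had medians near 0 or few genes. Means above the background range were found for 7 of 8 astrocyte, 7 of 7 oligodendrocyte and 5 of 6 microglia markers. The counts were 0 of 4 for the pituitary markers and 7 of 11 for the neuropeptides. The 8 astrocyte markers had a median of 0.014, with SLC1A2 at 0.14 ± 0.10 and ALDH1L1 at 0.19 ± 0.20 (SE each). The 7 oligodendrocyte markers had a median of -0.043, with MOG at -0.19 ± 0.10 and CNP at -0.21 ± 0.12 (SE each). The 6 microglia markers had a median of 0.0087, with TYROBP at -0.15 ± 0.09 and P2RY12 at 0.16 ± 0.10 (SE each). The 4 anterior pituitary markers had a median of 0.10, with CGA at -0.39 ± 0.44 (SE) beside GH1. The 11 hypothalamic neuropeptides had a median of -0.0031, with HCRT at -0.14 ± 0.12 and AVP at 0.13 ± 0.14 (SE each).

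The brightest probe set of each of the 7 genes was set against the mean of 6 of these marker lists over the 12 pigs, which gave 42 relations. By Pearson's r, 0 passed after adjustment and 4 had an unadjusted permutation p under 0.05. By rho, 0 passed. By r, 1 passed once low feed efficiency replicate 4 had been left out, and 2 once low feed efficiency replicate 6 had been. The closest was that of IGF2R with the endothelial markers, at r = -0.77 (permutation, adjusted p = 0.0533) and rho = -0.78 (permutation, adjusted p = 0.163). Without the 2 pigs farthest from the median of the marker mean r was -0.72, and within the lower identifier run of 8 pigs it was -0.62. The IGF2R probe set used was SNOWBALL_002066_s_st, with which the second IGF2R probe set had an r of -0.063. IGF1 with the neuron markers gave r = 0.69 and rho = 0.68 (permutation, adjusted p = 0.214 and 0.4), with r = 0.67 without 2 pigs and 0.82 within the lower run. IGF1R with the mural markers gave r = 0.68 and rho = 0.57 (permutation, adjusted p = 0.214 and 0.675), with r = 0.49 without 2 pigs and 0.69 within the lower run. IGF2R with the choroid plexus markers gave r = 0.57 and rho = 0.30 (permutation, adjusted p = 0.409 and 0.768), with r = 0.52 without 2 pigs and 0.43 within the lower run. IGF2 with the meningeal markers gave r = 0.15 and rho = 0.24 (permutation, adjusted p = 0.922 and 0.768), with r = 0.15 without 2 pigs and -0.056 within the lower run.

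The genes whose pattern over the 12 pigs was most like that of a member were ranked by Pearson's r among 12608 genes, as a description only. For IGF2 they were CD8B (0.90), CHTF18, INHBB, XRCC3 and FMO1 (0.86), with mean signals of 3.155 to 6.15, all inside the background range. Their r was 0.16 to 0.64 without low feed efficiency replicate 4 and high feed efficiency replicate 6, the 2 pigs with the lowest IGF2 signal. For IGFBP3 they were B3GNT6 (0.95), MBD2, PRELID1, RDH13 and SH3BP5L (0.84), with r of 0.61 to 0.89 without 2 pigs. For IGFBP5 they were PLEKHA3 (0.91), PTGFR, RCAN3, REEP1 and FBXL5 (0.85), with r of 0.57 to 0.74 without 2 pigs. For IGFBP2 they were ZNF577 (0.90), IAH1, PROM1, KLHL13 and FBXL4 (0.84), with r of 0.46 to 0.89 without 2 pigs. All these values share the 12 arrays, and each is among the 5 highest of 12608.

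In the RefSeq annotation of Sscrofa11.1, used for gene order only, IGFBP2 and IGFBP5 were next to each other, IGFBP3 was next to IGFBP1, and IGF2 was next to INS. The neighbours IGFBP2 and IGFBP5 had differences of 0.06 ± 0.14 and 0.12 ± 0.10 (SE each) for feed efficiency and of 0.20 ± 0.14 and -0.18 ± 0.10 (SE each) for sex. IGF2 and INS differed by 0.04 ± 0.08 and 0.12 ± 0.15 (SE each) for feed efficiency. No source used here names the array's genome build, so no coordinates are given.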

How the data were processed

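Hypothalamus total RNA of 12 pigs was measured on 12 Affymetrix Snowball arrays, read from the deposited series table. Its values are log2 signals that the authors made with GCOS version 1.1.1 as the 1 tool named, per the submitters' processing notes. The log2 scale was inferred from the range of the values, and every fold rests on it. How background, probe summary and normalization were handled is not given in the sources used here. Groups and sex came from the labels. Replicate numbers follow accession order only.

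From the 47845 rows, the 123 controls and the 25% of probe sets with the lowest mean (under 2.43) were left out, which left 35791. By the platform annotation, 26426 rows carried a single symbol, 0 more than 1 and 21419 no symbol. Differences were fitted with limma 3.58.1 in R 4.3.3 (lmFit, eBayes), with sex as a term for feed efficiency and feed efficiency as a term for sex, and the interaction in a fit of the 4 groups. P-values were adjusted by Benjamini-Hochberg over all 35791, with a threshold of 0.05. Correlations were tested with 100000 permutations in Python 3.11.15.

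Simulated data with the spreads of the 35791 probe sets were used to test the fits. Of 100 probe sets changed by 1, 80 were called for feed efficiency and 80 for sex, and of 100 changed by 0.5, 35 were called for feed efficiency and 36 for sex, and 9 unchanged probe sets were called for feed efficiency and 8 for sex. The changes were added to the signal of probe sets drawn at random. The counts therefore do not hold for changes in RNA where a signal lies at background. The number of arrays limits the precision.

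The members and gene lists were chosen with earlier results of these data known. All members are named whatever their values, up to 3 genes of each pathway list and 2 of each cell type list by smallest unadjusted p for feed efficiency, and the 5 genes most like IGF2, IGFBP2, IGFBP3 and IGFBP5. Alternatives were other filters on dim probe sets, normalizations, eBayes settings, array weights, terms, probe set rules, the identifier runs and leaving out each pig.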

Additional observations from a re-analysis of the deposited data

Results flagged for a closer look

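A pig far from the other 5 of its group was looked for in each of 82 groups of 6, 1 for each of the 41 member probe sets and feed efficiency group. The gap to the nearest pig was set against the group's range, and 4 groups exceeded Dixon's 95% limit. Chance flags about 1 in 20 groups. For the brightest IGF2 probe set, SNOWBALL_022586_s_st, the lowest pig of each group stood apart: low feed efficiency replicate 4 at 10.9964, with the other 5 at 11.18 to 11.27, and high feed efficiency replicate 6 at 10.859, with the other 5 at 11.17 to 11.26. Both were females, 1 from each identifier run. For IGFBP5, SNOWBALL_039903_st was lowest in low feed efficiency replicate 2, at 3.7091 against 5.60 to 6.64 in the others, and SNOWBALL_000378_st was highest in high feed efficiency replicate 2, at 7.0995 against 6.67 to 6.82. Both were males.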

How the results depend on the processing

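No paired analysis was possible because the labels give no replicate number shared by pigs of both groups. The counts at an unadjusted p under 0.05 and the separate identifier runs were chosen after seeing the data. Among the member differences computed again in each setting, the lowest adjusted p was 0.0992, for SNOWBALL_037534_st of IGFBP5 between the sexes. For feed efficiency over the array, 0 to 1 probe set passed when 1 pig was left out, 1 of them without low feed efficiency replicate 2 (adjusted p = 0.0328). For sex the 8 calls were 2 with the dimmest 50% left out, 0 with the mean of a gene's probe sets (587 at an unadjusted p under 0.05), 5 with the identifier run as a further term, 4 in the lower run alone, and 7 to 10 with 1 pig left out.

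The member count of 2 for feed efficiency at an unadjusted p under 0.05 was 1 with equal array medians, 1 with the identifier run as a term and 0 to 3 with 1 pig left out. The count of 9 for sex was 6 to 10 and that of IGF2 was 4 to 6 over all settings. The shares of all probe sets in these settings are not given here, so the counts are not read against the array. The 2 relations of agreement were 0 to 2, and the 0 relations with marker means were 0 to 2, with 1 pig left out.

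Some differences between low and high pigs, none of them past the threshold, changed sign. For IGF2 the 0.04 was -0.046 in the lower run and -0.014 to 0.073 with 1 pig left out. For IGF1 the 0.22 was -0.038 in the higher run and 0.13 to 0.33 with 1 pig left out. For IGF1R the -0.0057 was 0.016 with equal array medians, 0.048 with the mean of the probe sets and -0.068 to 0.019 with 1 pig left out. For IGF2R the -0.0015 was 0.020 with equal array medians, 0.0016 with array weights, 0.17 in the higher run and -0.072 to 0.049 with 1 pig left out. For IGFBP2 the 0.06 was -0.040 in the higher run and -0.016 to 0.16 with 1 pig left out. For IGFBP3 the -0.11 was 0.14 in the higher run and -0.23 to -4.9e-05 with 1 pig left out. The higher run holds 4 females, 2 of each group. IGFBP5 kept its sign in 24 of 24 settings, which include the mean of its probe sets. The cause of these changes was not tested.

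Of the 38 tested member probe sets, 4 had a mean above every background probe set. For the others the signal can lie at background, where it bounds a difference in RNA poorly. Whether it did was not tested.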
